A study of Mus musculus with 2 samples.

Results

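The microRNA genes described here are 6 genes linked to red blood cells, Mir451a, Mir144, Mir486, Mir182, Mir183 and Mir96. They were chosen by name from the 1973 microRNA genes of the deposited count tables, and all 6 were found. The tables hold small RNA sequencing of whole embryonic liver, taken from B6NCrl mice at embryonic day 14.5, as 1 group of 2 libraries called replicate 1 and replicate 2. The labels name no treatment and no engineered allele. Each library is labelled as the liver of a single pup, yet its sex is given as pooled and both carry the same donor ID, so how far the samples are separate animals is uncertain. Reads counted on a gene's own strand came to 2353946 in replicate 1 and 3132763 in replicate 2, out of 6395680 and 8068090 reads. Levels below are CPM, counts scaled to a same-strand total of 1000000, and ± marks the SD of both libraries. A gene with no count could still have had up to 3 counts, or 1.27 CPM for replicate 1 against 0.958 CPM for replicate 2. The counts do not separate the arms of a hairpin, and reads mapping to several places are in no gene's count. The tissue label fits its main marker, since Mir122, the microRNA typical of hepatocytes, had the highest level of all genes (97348 CPM in replicate 1 against 110371 CPM in replicate 2). With a single group there was no comparison of conditions, so the 6 genes were compared with each other within a library and between the libraries.

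At mid-gestation the mouse liver is the main place where red blood cells form, so its RNA is a mixture from maturing red cells, hepatocyte precursors and other cells. MicroRNAs are short RNAs that pair with messenger RNAs, mostly through the bases near their 5′ end called the seed, and lower their output. Mir144 and Mir451a, called the pair below, are cut from the same transcript, which the red cell factor GATA1 switches on, and miR-451a helps red cells mature and withstand oxidative stress. miR-451a is unusual in being made without Dicer, since Argonaute 2 cuts its hairpin instead. miR-486 is made from the gene of the red cell ankyrin and also in muscle. The cluster of Mir182, Mir183 and Mir96 is best known from sensory cells of the ear and eye. It is also found in blood-forming cells, and in human red cell precursors miR-96 represses gamma-globin.

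The mature sequences show how unlike the pair is and how alike the cluster is. They are from RefSeq on GRCm38.p6, which matched 5 of the 6 genes, and are written 5′ to 3′ with the seed (bases 2 to 8) in capitals. Both arms are shown for Mir144, and the 5p arms for the cluster.
miR-451a: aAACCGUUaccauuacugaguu
miR-144-5p: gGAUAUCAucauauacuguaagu
miR-144-3p: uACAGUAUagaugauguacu
miR-182-5p: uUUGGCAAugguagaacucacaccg
miR-183-5p: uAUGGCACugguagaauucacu
miR-96-5p: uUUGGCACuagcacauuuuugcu

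miR-451a and miR-144-3p matched at 2 of 7 seed bases and at 4 of 20 positions counted from the 5′ end. Within the cluster, miR-182-5p and miR-183-5p matched at 18 of 22 positions but at only 5 of 7 seed bases. miR-182-5p and miR-96-5p matched at 6 of 7 seed bases and 12 of 23 positions, and miR-183-5p and miR-96-5p at 6 of 7 seed bases and 13 of 22 positions. No 2 of the 6 sequences shared a whole seed. Among the 1738 mature sequences of the RefSeq table, only miR-1271-5p had the seed of miR-96-5p, and its gene Gm24195 had 0 counts in both libraries. The first 6 seed bases of miR-144-3p were shared with miR-101a-3p, whose gene Mir101a had 107 CPM in replicate 1 against 81.4 CPM in replicate 2. No other gene in that table gave a mature sequence identical to one of these.

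The hairpins of the pair are shown because miR-451a lies differently in its own. Capitals mark the mature sequences.
Mir451a hairpin, chr11:78073170-78073241, plus strand: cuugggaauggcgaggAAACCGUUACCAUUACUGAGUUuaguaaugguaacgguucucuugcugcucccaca
Mir144 hairpin, chr11:78073005-78073070, plus strand: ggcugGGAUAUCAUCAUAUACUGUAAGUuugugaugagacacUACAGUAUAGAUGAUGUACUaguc

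In the fold predicted by RNAfold, miR-451a covered bases 17 to 38 of its 72-base hairpin and so took in the whole terminal loop of 4 bases. Neither mature arm of Mir144, Mir182, Mir183 or Mir96 had a base in the terminal loop.

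By GENCODE M21 on GRCm38 (mm10), the pair lies on the plus strand of chromosome 11 in a span of 237 bp, with 99 bp between Mir144 (ENSMUSG00000065401) and Mir451a (ENSMUSG00000070065). It lies in no other annotated gene, between Flot2 and Eral1, and Eral1 lies 134 bp from Mir451a. Mir486 (ENSMUSG00000070084, chromosome 8 from 23142555 to 23142682, plus strand) lies in an intron of Ank1, the gene of the red cell ankyrin. The antisense gene Gm15816 also has an intron there. Mir3107, also called mir-486b, is annotated on the other strand within it, from 23142573 to 23142662. The cluster lies on the minus strand of chromosome 6, in a span of 3820 bp between Nrf1 and Ube2h and within no annotated gene. Mir183 (ENSMUSG00000065619, 30169668 to 30169737) and Mir96 (ENSMUSG00000065586, 30169446 to 30169551) are 116 bp apart, and Mir182 (ENSMUSG00000076361, 30165918 to 30165992) is 3453 bp further along.

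The pair had far higher counts than the other members. Mir451a had 38019.6 CPM in replicate 1 (rank 5 of all genes) against 30243 CPM in replicate 2 (rank 8). It took 3.80% of all replicate 1 counts, with a 95% Clopper-Pearson interval of 3.78 to 3.83, against 3.02% of those of replicate 2 (3.01 to 3.04). Mir144 had 11594 CPM in replicate 1 against 9272 CPM in replicate 2, at ranks 27 and 32. Both genes of the pair were therefore among the genes with the most same-strand counts in each library. These ranks leave out opposite-strand counts and reads mapping to several places. Mir486 had 405 CPM in replicate 1 against 516 CPM in replicate 2, from 953 and 1615 counts. It was the only member that was lower in replicate 1.

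The cluster was low but well above the limit that a count of 0 allows. Mir182, its highest gene, had 307 CPM in replicate 1 against 241 CPM in replicate 2, from 722 and 754 counts. Mir183 had 157 and 149.7 CPM, from 369 and 469 counts. Mir96 had 92.6 and 89.1 CPM, from 218 and 279 counts. Their ranks lay between 139 and 196. The order of the means was Mir451a (34131 ± 5499 CPM), Mir144 (10433 ± 1642 CPM), Mir486 (460.2 ± 78.3 CPM), Mir182 (274 ± 46.7 CPM), Mir183 (153 ± 4.99 CPM) and Mir96 (90.8 ± 2.51 CPM; n = 2 each). The order was the same in both libraries, and no member's values overlapped those of its neighbour in the order. The place of Mir486 rests on counts without reads mapping to several places, and their effect on it was not tested. Counting error of reads is all that the intervals cover. PCR copies are not separate molecules, so for molecules the intervals may be too narrow.

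**Figure D1:**
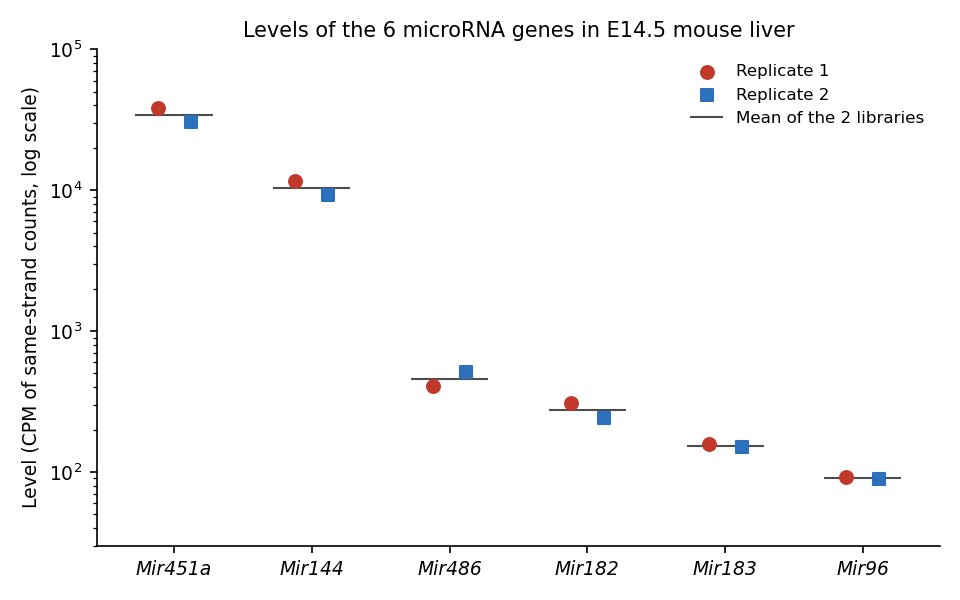
Level of each gene in CPM of same-strand counts on a log axis, with replicate 1 as circles, replicate 2 as squares and the mean of the 2 libraries as a line. The genes of the pair sit at 9272 CPM or above and the other 4 genes at 516 CPM or below, and Mir486 is the gene whose replicate 1 value is the lower one.

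Set against each other, the pair held 49613 CPM in replicate 1 against 39515 CPM in replicate 2, and the cluster held 556 and 479 CPM. The pair made up 98.1% of the counts of all 6 genes in replicate 1 and 97.5% in replicate 2. These shares leave out reads mapping to several places, and whether Mir486 is counted too low for this reason was not tested. The ratio of the pair's summed counts to the cluster's was 89.2 in replicate 1 (95% exact interval 84.5 to 94.3) and 82.4 in replicate 2 (78.3 to 86.8), a mean of 85.8 ± 4.81. This ratio does not depend on how a library is scaled. It was 1.08 times as high in replicate 1 as in replicate 2 (exact interval 1.00 to 1.17; two-sided Fisher's exact test, p = 0.0386). The difference did not pass for the highest gene of each locus. Mir451a over Mir182 was 124 in replicate 1 (115 to 134) and 126 in replicate 2 (117 to 135), a change of 0.986 (0.889 to 1.09; Fisher's exact test, p = 0.814). These tests compare 2 libraries and not conditions.

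Between the libraries, the pair and Mir182 were higher in replicate 1, and Mir486 was lower. Mir451a was 1.26 times as high in replicate 1 (95% exact interval 1.25 to 1.27; two-sided exact binomial test over the 332 genes that had 10 or more counts in both libraries, Benjamini-Hochberg adjusted p at most 1e-300, the smallest written). Mir144 was 1.25 times as high (1.23 to 1.27; adjusted p = 1.93e-152 by the exact test). Mir182 was 1.27 times as high (1.15 to 1.41; adjusted p = 1.64e-05 by the exact test). Mir486 had a ratio of 0.785 (0.724 to 0.851; adjusted p = 1.52e-08 by the exact test). The ratios of Mir183 (1.05, 0.911 to 1.20) and Mir96 (1.04, 0.867 to 1.25) did not pass the exact test, with adjusted p of 0.661 and 0.813.

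Read against all genes, calls of this kind were common. Of the 332 genes tested, 139 (41.9%) differed between the libraries, with 61 (18.4%) above replicate 2 and 78 (23.5%) below it in replicate 1. Of the 6 members 4 differed, 3 above and 1 below. All 6 had at least 100 counts in both libraries, and of the 215 such genes 60.5% were called (22.8% higher and 37.7% lower in replicate 1), so the members' share is near that of genes of their depth. The median absolute log2 ratio of all genes tested was 0.17, against 0.33 for Mir451a, 0.32 for Mir144, 0.35 for Mir182 and 0.35 for Mir486 in size. Those 4 members held places 79 to 90 of 332 by size. Among the 127 genes that had 1000 or more counts in both libraries, the median size was 0.09 and 71.7% were called. By size Mir451a held rank 10 of these genes and Mir144 rank 11. From the highest ratio down they held ranks 6 and 7. Scaling changed the balance of calls. By all reads of the library 47.9% of genes differed, 36 (10.8%) higher and 123 (37.0%) lower in replicate 1. By TMM 39.5% differed (19.9% higher and 19.6% lower in replicate 1), and by DESeq2 size factors 39.8% (19.9% in each direction). The calls of the 6 members were the same by TMM, by DESeq2 size factors and by all reads. By all reads the ratios of Mir183 and Mir96 lay just below 1.

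**Figure D2:**
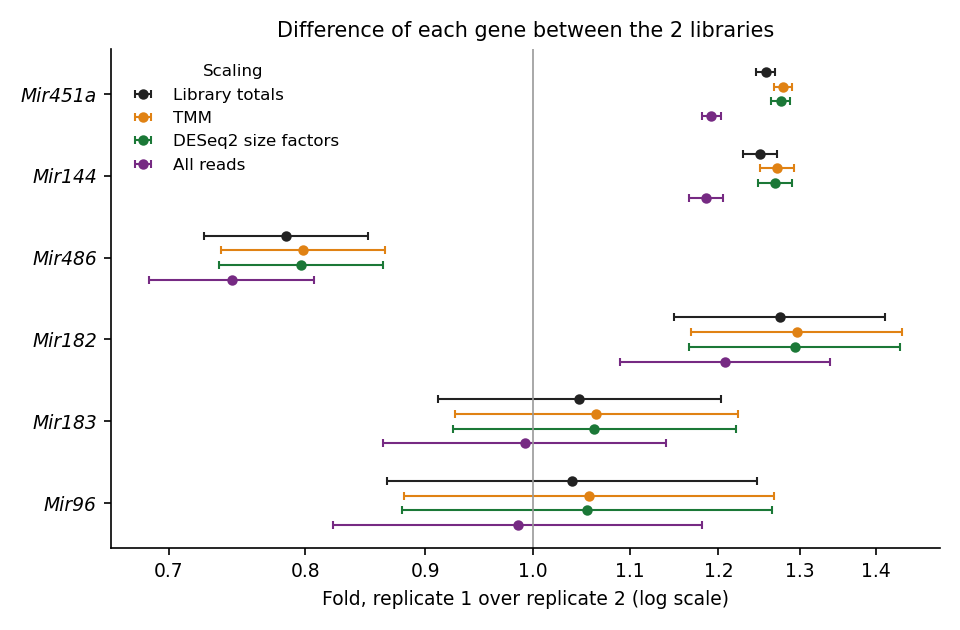
Fold of each gene between the libraries, replicate 1 over replicate 2, on a log axis under 4 scalings, with 95% exact intervals as bars. Mir451a, Mir144 and Mir182 lie above 1 and Mir486 below 1 under each scaling, while the bars of Mir183 and Mir96 cross 1.

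**Figure D3:**
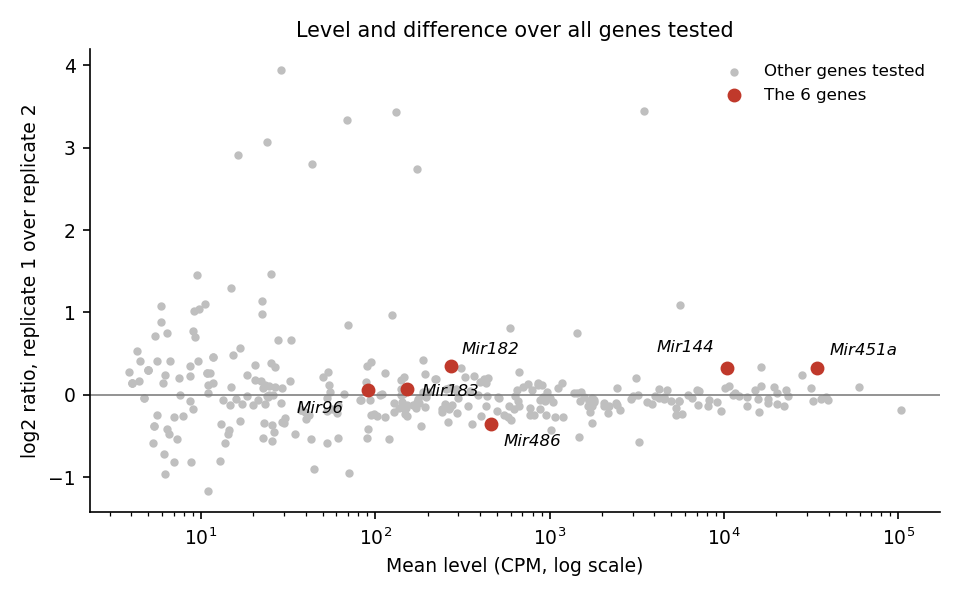
Mean level in CPM (log axis) against the log2 ratio of replicate 1 over replicate 2 for the 332 genes tested, with the 6 genes in red. Mir451a and Mir144 lie together near 0.33 and 0.32 at high level, and Mir486 lies below the line at -0.35.

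The ratios within the pair and between Mir96 and Mir183 differed little between the libraries. Mir451a over Mir144 was 3.28 in replicate 1 (95% exact interval 3.24 to 3.32) and 3.26 in replicate 2 (3.22 to 3.31). The change was 1.01 (0.987 to 1.02; Fisher's exact test, p adjusted over 3 ratios 0.869), although each gene was about 1.25 times as high in replicate 1. Mir96 over Mir183 was 0.591 in replicate 1 (0.497 to 0.700) and 0.595 in replicate 2 (0.511 to 0.691), a change of 0.993 (0.789 to 1.25; exact test, adjusted p = 0.955). The ratio of Mir182 to Mir183 was less even. Mir182 over Mir183 was 1.96 in replicate 1 (1.72 to 2.22) and 1.61 in replicate 2 (1.43 to 1.81). That change of 1.22 (1.02 to 1.45) had an unadjusted p of 0.0243 by Fisher's exact test and did not pass after adjustment over the 3 ratios (p = 0.073). Mir182 made up 55.2% of the cluster's counts in replicate 1 (52.4 to 57.9) and 50.2% in replicate 2 (47.6 to 52.8).

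Mir486 and the pair, already called in opposite directions, were also compared as a ratio, added after the data were seen. The test of this ratio reuses the same counts and is no separate evidence. Mir451a over Mir486 was 93.9 in replicate 1 (88.1 to 100.2) and 58.7 in replicate 2 (55.8 to 61.7). The ratio was 1.60 times as high in replicate 1 (1.48 to 1.74; Fisher's exact test, p = 3.34e-31). Likewise Mir486 over Mir182 was 1.32 in replicate 1 (1.20 to 1.46) and 2.14 in replicate 2 (1.96 to 2.34). In these counts, which leave out reads mapping to several places, Mir486 was the higher of these 2 genes in both libraries, by unequal margins.

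**Figure D4:**
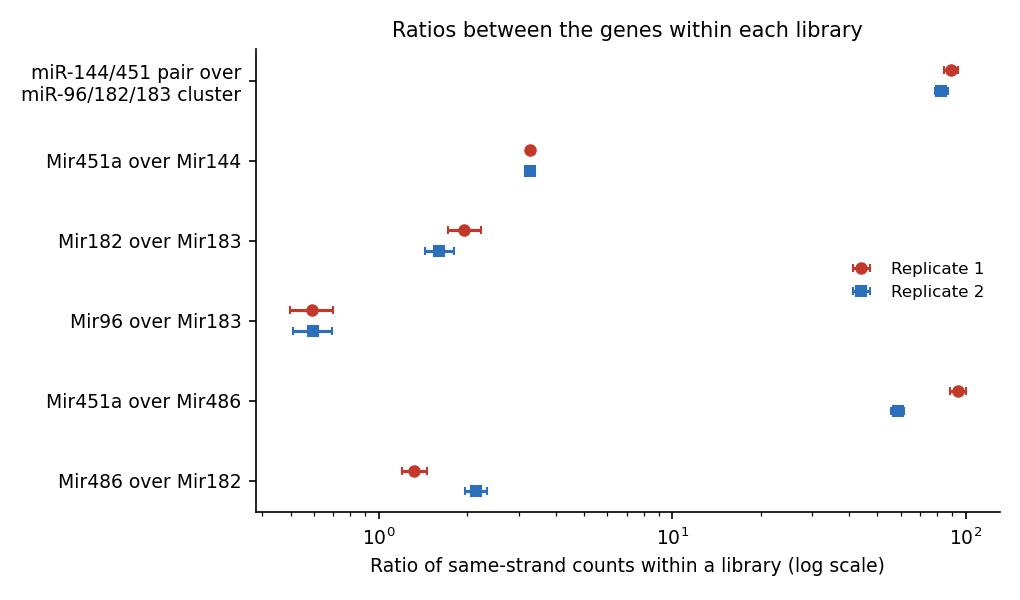
Ratios of same-strand counts between the genes within each library on a log axis, with 95% exact intervals as bars, replicate 1 as circles and replicate 2 as squares. Mir451a over Mir144 and Mir96 over Mir183 nearly coincide in the 2 libraries, whereas Mir451a over Mir486 was 93.9 in replicate 1 and 58.7 in replicate 2.

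Mir486 also had counts on its opposite strand. Opposite-strand counts at Mir486 were 139 in replicate 1 and 220 in replicate 2, or 12.7% (10.8 to 14.9) and 11.99% (10.5 to 13.6) of the counts on both strands. The difference between these shares did not pass (odds ratio of replicate 1 over replicate 2 1.07, 0.847 to 1.35; Fisher's exact test, p = 0.561). Of the 332 genes tested, 292 had no opposite-strand count in either library, 13 had a share of at least 1%, and Mir486 held rank 3 by this share. Mir3107, the gene annotated there, was not analysed here. Reads mapping to more than 1 place (34.0% of reads in replicate 1 and 33.1% in replicate 2) are in no gene's count, and whether this touches the level of Mir486 was not tested.

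At the other genes the opposite strand was nearly empty. Mir451a had 0 opposite-strand counts in both libraries, which allows a share of up to 0.00335% in replicate 1 and 0.00317% in replicate 2, although Mir451b is annotated on the other strand over the same 72 bases. The Mir451b hairpin is shown, with its mature sequence in capitals, because it holds most of the letters of miR-451a in the same order.
Mir451b hairpin, chr11:78073170-78073241, minus strand: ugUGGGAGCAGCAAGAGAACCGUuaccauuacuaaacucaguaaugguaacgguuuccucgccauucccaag

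The longest run common to miR-451a and this hairpin was 16 of 22 bases. Mir144 had 1 opposite-strand count in replicate 1 and 0 in replicate 2, and Mir96 had 0 in both. Mir182 had 3 and 7, and Mir183 had 1 and 5.

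**Figure D5:**
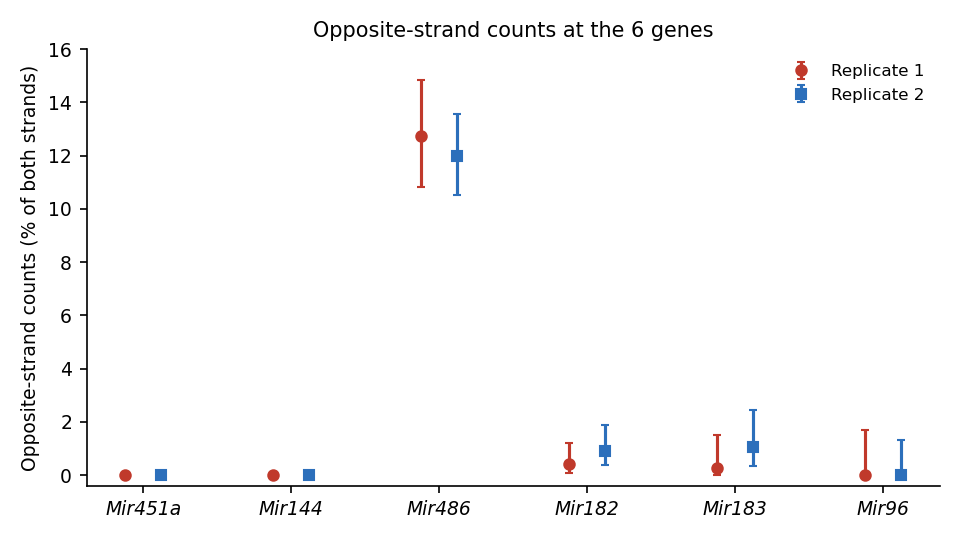
Opposite-strand counts as a percent of the counts on both strands at each gene, with 95% Clopper-Pearson intervals as bars, replicate 1 as circles and replicate 2 as squares. Mir486 stands at 12.7% and 11.99%, and the other 5 genes lie at or below 1.05%.

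Other microRNAs linked to red cell maturation were steadier between the libraries than the pair. Of a list of 10 that rise or act in maturing red cells, 5 were higher in replicate 1, none was higher in replicate 2 and 5 did not pass, against 18.4% and 23.5% of all genes tested. All but Mir199b had at least 100 counts in both libraries, and of such genes 22.8% were higher and 37.7% lower in replicate 1. These calls use library totals. By all reads only 10.8% of all genes tested were higher in replicate 1, and the list's calls by that scaling are not given here. Their median log2 ratio was 0.05, against -0.03 for all genes tested. Mir15a, which belongs to the transcript of Mir16-1, had 15426 CPM in replicate 1 against 14847 CPM in replicate 2, a ratio of 1.04 (1.02 to 1.05). Mir210, a microRNA of the hypoxia response, had 938 and 864 CPM (ratio 1.09, 1.03 to 1.15). Mir16-1 (1.03, 1.01 to 1.05), Mir27a (1.11, 1.02 to 1.20) and Mir24-2 (1.15, 1.02 to 1.29), the last 2 from the transcript of Mir23a, also passed the test. Mir23a (11724 and 11521 CPM), Mir16-2 (1525 and 1488 CPM), Mir29a (996 and 1022 CPM), Mir363 (156 and 135 CPM) and Mir199b (38.2 and 45.3 CPM) did not pass. By sum the list was 1.03 times as high in replicate 1 (1.02 to 1.04).

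A second list held 6 microRNAs that fall as red cells mature, of which 5 had a row. Mir223, a microRNA of granulocytes and monocytes, had 10498 CPM in replicate 1 against 9885 CPM in replicate 2, a ratio of 1.06 (1.04 to 1.08). Mir126a, a microRNA of the cells lining vessels, had 61517 and 57654 CPM, a ratio of 1.07 (1.06 to 1.07). Mir155 was lower in replicate 1, with 77.7 against 104 CPM (ratio 0.747, 0.620 to 0.898). Mir221 (664 and 639 CPM) and Mir222 (356 and 345 CPM), which target the receptor gene Kit, did not pass. The genes of both lists that passed had smaller log2 ratios in size than the pair, except Mir155. The median log2 ratio of the second list was 0.06. Mir191, under its own ID, was not analysed here.

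The lists of markers of other cells are given beside the share of all tested genes that differed, 41.9%, with 18.4% higher and 23.5% lower in replicate 1. Among genes with at least 100 counts in both libraries these shares were 60.5%, 22.8% and 37.7%, and the lists' own counts are too small to be set apart from them. Of the hepatocyte list (5 of 6 genes with a row, none at 0), 3 genes were lower in replicate 1 and none higher, and the summed level was 105667 CPM in replicate 1 against 119139 CPM in replicate 2. The pair's counts were 0.470 of that sum in replicate 1 and 0.332 in replicate 2. The white cell list (6 of 7 genes, none at 0), led by Mir223, summed to 12155 and 11560.4 CPM, with 1 gene higher and 1 lower in replicate 1. Mir142, a microRNA of blood cells, is on that list but was not analysed here under its ID. Mir142b lies there in the reverse direction, and its opposite-strand counts were 126731 in replicate 1 against 180061 in replicate 2. With them added, a choice made after the data were seen, the white cell sum turned to the lower side in replicate 1 (65993 against 69037 CPM of same-strand totals, ratio 0.956, 0.9497 to 0.962). The mesenchymal list (6 of 6 genes, none at 0 in both), led by Mir21a, summed to 48141 and 42672 CPM, with 2 genes higher and 1 lower in replicate 1. The median log2 ratio of the tested genes was -0.14 for the hepatocyte, -0.03 for the white cell and 0.09 for the mesenchymal list. Of the endothelial list Mir126a alone had a row. The pair's ratio to each of these sums was higher in replicate 1, by 1.42 times for hepatocyte, 1.19 for white cell (1.31 with the counts at Mir142b), 1.18 for endothelial and 1.11 for mesenchymal markers. These ratios reuse the pair's counts, already called higher in replicate 1, and are no separate evidence. The same change was 0.113 for the sensory and neural list and 1.37 for the epithelial list of the next paragraph. In whole liver, fewer cells of a type and less RNA per cell cannot be told apart. The part of other cells in the members' differences was not tested.

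Cells of other kinds that are known to hold the Mir182, Mir183 and Mir96 cluster were described by a sensory and neural list and an epithelial list. The sensory and neural list summed to 258 CPM in replicate 1 against 23.3 CPM in replicate 2, a ratio of 11.1 (8.68 to 14.3). Of its 6 genes with a row, Mir137 made up most (242 and 22.3 CPM), Mir9-3 had 38 and 2 counts, Mir124a-1 had 0 and 1, and Mir124a-2, Mir124a-3 and Mir9-2 had 0 in both libraries. Reads mapping to several places are in no gene's count, so low counts at these numbered copies cannot show that their microRNAs are absent. The sum of this list therefore rests almost wholly on Mir137. Mir137, the only gene of that list tested, was higher in replicate 1 (ratio 10.8, 8.44 to 14.1; adjusted p = 7.37e-131 by the exact test). The cluster summed to 556 and 479 CPM. The epithelial list, led by Mir429, summed to 2716 and 2967 CPM, with 2 of 5 genes lower in replicate 1, none higher, none at 0 and a median log2 ratio of -0.17. Of all genes tested 23.5% were lower in replicate 1, and 37.7% of those with at least 100 counts in both libraries. The part of these cells in the level or difference of Mir182 was not tested.

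Leaving out the 6 members themselves, the genes whose ratio between the libraries was nearest to that of Mir451a were Mir99a (1.26), Mirlet7b (1.21) and Mir21a (1.18), out of 125 other genes with 1000 or more counts in both libraries. Mir99a differed from Mir451a by 0.0087 in log2 ratio, Mirlet7b by 0.055 and Mir21a by 0.092. Its partner Mir144 was nearer, with a difference of 0.0078. Among the same 125 genes those 3 were also nearest to Mir182, from which Mir99a differed by 0.011, Mirlet7b by 0.075 and Mir21a by 0.11. The members Mir451a and Mir144 differed from Mir182 by 0.020 and 0.027. Genes with fewer counts, such as Mir182 itself has, were not among the candidates. Likeness over 2 libraries rests on a single ratio per gene.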

How the data were processed

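The deposited values are raw read counts per microRNA gene, made by the authors from each library's own alignment to mm10 with annotation M4, per the notes deposited with the files. For the aligner, the counter and trimming, names were not given in the sources used here. Libraries hold RNA under 30 nucleotides, per the labels. Each table gives counts regardless of strand, on the gene's strand and on the opposite strand. Rows that name no gene stayed out of library totals: unmapped reads (18.6% in replicate 1 and 17.7% in replicate 2), reads mapping to several places (34.0% and 33.1%), ambiguous reads (0) and reads outside genes on the same strand (10.6% and 10.4%). Since reads mapping to several places were not counted, genes with identical copies are counted too low.

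Of the 1973 Ensembl IDs, 1894 matched GENCODE M21 on GRCm38. Genes with 10 or more same-strand counts in both libraries were compared with exact binomial tests, two-sided and conditional on library totals (scipy 1.17.1), with Benjamini-Hochberg adjustment over 332 genes and a threshold of 0.05. edgeR's quasi-likelihood test could not be used, as a comparison of 1 library with 1 has no residual spread. Ratios within a library have exact binomial intervals and their changes were tested by Fisher's exact test. All p-values and intervals cover counting error between these 2 libraries, and with 2 samples no permutation test over samples was possible. The smallest p written is 1e-300. Alternatives were TMM (edgeR 4.0.16), DESeq2 1.42.0 size factors, totals without the highest gene, all reads, counts regardless of strand, other minimum counts, leaving out a replicate and the highest member of each locus. Folds were predicted with RNAfold 2.7.2. The binomial step was checked on simulated counts. Named were the 6 members, genes on their opposite strand, the genes of the 2 red cell lists, the highest gene of each marker list, and the 3 genes nearest in ratio to Mir451a and to Mir182. Other marker genes are named where they complete a list, and Mir101a, Gm24195, Mir3074-1, Mir5618 and Mir142b were named after their values were seen. Members and lists were chosen with earlier results of these data known. Mir146a stands under its GENCODE symbol Mir146. Mir142, Mir191, Mir126b, Mir9-1, Mir885, Mir451b and Mir3107, under their own IDs, were not analysed here.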

Additional observations from a re-analysis of the deposited data

Results flagged for a closer look

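Counts on the strand opposite to a gene were not part of the main measurement. At 3 members they exceeded the 3 counts that a count of 0 allows. Mir486 had 139 such counts in replicate 1 and 220 in replicate 2. Mir182 had 7 in replicate 2 and Mir183 had 5 in replicate 2, while replicate 1 had 3 and 1. There are no control samples to set these values against.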

How the results depend on the processing

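Of the 6 members, the ratios of Mir451a, Mir144, Mir486 and Mir182 between the libraries kept their direction and stayed past the threshold under the 8 alternatives run, which were TMM, DESeq2 size factors, totals without the highest gene, all reads, counts regardless of strand and 3 other minimum counts. Mir183 and Mir96 did not pass under any of these, and by all reads their ratios turned to 0.993 and 0.986. The number of differing genes was 139 and lay between 130 and 159 under the alternatives. The number tested varied more, from 215 with a minimum of 100 counts to 700 with no minimum. The share called was 60.5% and 19.9% under these, so it depends strongly on the minimum. The pair over cluster ratio was 85.8, between 82.4 and 89.2 without either replicate, and 124.8 with the highest gene of each. Its change between the libraries turned to 0.986 with the highest gene of each. The change of Mir96 over Mir183 turned to 1.00 regardless of strand. Without either replicate the levels ranged from 30243 to 38019.6 CPM for Mir451a, 9272 to 11594 for Mir144, 405 to 516 for Mir486, 241 to 307 for Mir182, 149.7 to 157 for Mir183 and 89.1 to 92.6 for Mir96. Scaled to 1000000 of all reads the mean levels were 12868, 3934, 175, 103, 57.9 and 34.3 in that order, which follows from the larger total. Regardless of strand, Mir183 had 139 CPM and Mir96 had 81.8 CPM, and Mir96 over Mir183 was 0.589. With the opposite-strand counts at Mir142b, added after the data were seen, the ratio of the white cell sum turned to 0.956, against 1.05 as listed, and that of the pair over the list moved to 1.31. Depth limits the cluster, where Mir96 rests on 218 and 279 counts. No paired analysis was possible because there is only 1 group.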

Other observations

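The changes of ratios within a locus can be set beside those of other loci, a description chosen after the data were seen. Among 109 pairs of neighbouring tested genes on the same strand within 10000 bp, the median absolute change of the log2 ratio between the libraries was 0.13. Mir144 and Mir451a changed by 0.0078 and had rank 5 from the smallest change, and Mir96 and Mir183 changed by 0.00997 (rank 8). The exact interval for the change of Mir96 over Mir183 ran from 0.789 to 1.25 times. That is far wider than the change itself, so this rank cannot show steadiness. Mir182 and Mir96 changed by 0.29 (rank 81). Whether the genes of each pair share a transcript was not checked, the pairs differ in depth, and no test was made.

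Apart from Mir486, a share of at least 10% opposite-strand counts was seen among the tested genes only at Mir3074-1 (12.4% over both libraries) and Mir5618 (13.7%, from 7 opposite-strand counts in all).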
